A study of Mus musculus with 2 samples.

Results

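The genes described here encode the machinery that copies DNA in S phase. The 51 listed members were chosen by name for their role in replication and not by a measured value, but with earlier results of these data known. They comprise origin licensing factors, origin firing factors, polymerases and other proteins of the fork, enzymes of nucleotide supply, and factors of chromatin assembly. All 109 probe sets annotated with 1 gene symbol equal to a listed member were taken, and they covered 50 of the 51 members among 18193 genes with such a probe set. Chaf1a was not analysed here, and neither was a probe set annotated to both Tyms and a Tyms pseudogene. The RNA came from cells sorted as epithelial cells of the hair follicle, from back skin of CD-1 mice at postnatal day 4. Every animal carried both K14-RFP, a red reporter driven by the promoter of keratin 14, which is active in basal keratinocytes, and Sox9-EGFP, a green reporter for the follicle stem cell factor Sox9. Early bulge cells, the forerunners of the stem cell niche, were bright for both reporters. Non-bulge ORS cells, of the outer root sheath (the outer epithelial layer of the follicle), were bright for RFP and negative for EGFP. The gates of both sorts left out dead cells and large differentiated ones, and the sources used here do not say whether animals were pooled.

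Each population was measured on 1 Affymetrix array, so the ratios below stand without replicates and no test was made. A signal is the authors' MAS5 value of a probe set on a linear scale, and both arrays had been scaled to the same 2% trimmed mean. Signals under 57.9, the 40th percentile of both arrays pooled, were treated as equal to it and are called the floor. Each ratio is the early bulge signal over the ORS signal, so a negative log2 ratio is a lower signal in early bulge cells. Precision is limited by having 1 array per population. The spread of the log2 ratio between the 2 brightest probe sets of a gene (SD of their difference 0.46 over 5312 genes) describes technical disagreement only.

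Marker genes of the sort and of other cells differed between the arrays. Sox9 had a signal of 4061 in early bulge cells, against 676 in ORS cells, and the keratins Krt14, Krt5 and Krt15 gave at least 6609 on both. Each keratin was higher in early bulge cells: Krt14 by 2.23-fold (14706, against 6609 in ORS cells), Krt15 by 1.75-fold and Krt5 by 1.52-fold. Of 8 dermal fibroblast markers, 7 were at least 2-fold lower in early bulge cells. The exception was Fbln2 (2.78-fold higher), and Pdgfra was below the floor in early bulge cells. All 8 summed to 5651 in early bulge cells, against 52738 in ORS cells. In ORS cells, Col3a1 (16726), Col1a2 (14484) and Dcn (11512) had signals above that of Krt14 (6609). Of 6 markers of the hair matrix, the dividing cell mass at the base of the follicle, all 6 were lower in early bulge cells and 5 of them by at least 2-fold, with summed signals of 1470 in early bulge and 7497 in ORS cells. All 5 upper follicle markers were at least 2-fold higher in early bulge cells (summed 37147, against 4901 in ORS cells), as were 4 of 5 sebaceous gland markers. The exception was Mgst1 (9562 in early bulge cells, against 8052 in ORS cells, 1.19-fold higher). All 5 sebaceous gland markers, Mgst1 included, summed to 23894 in early bulge cells, against 11838 in ORS cells. Gata6, Cidea and Pparg of these lists were below the floor in ORS cells. The 5 melanocyte markers were less than 2-fold apart (2559 in early bulge and 2385 in ORS cells). Of 4 immune markers, Ptprc and Cd3e were below the floor on both arrays, Lyz2 had 61.6 in early bulge and 108.8 in ORS cells, and Cd74 had 147.1 in early bulge and 87.6 in ORS cells. Of 3 endothelial markers, Pecam1 and Cdh5 were below the floor on both arrays, and Kdr was below it in early bulge cells and had 76.6 in ORS cells. The part of these other cells in the ratios below was not tested. The control probe sets for the 3′, middle and 5′ parts of Gapdh had log2 ratios of -0.08, -0.28 and -0.21, and those of beta-actin 0.28, 0.05 and 0.11. Within each array the 3′ signal was above the 5′ one. For Gapdh, they were 11619 and 3068 in early bulge cells, and 12294.5 and 3544 in ORS cells. For beta-actin, they were 20360 and 5564 in early bulge cells, and 16754 and 5166 in ORS cells.

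Replication starts from origins that were licensed in G1, when the origin recognition complex (ORC), Cdc6 and Cdt1 load the Mcm2-7 helicase in an inactive form. In S phase, the kinases Cdc7-Dbf4 and cyclin E-Cdk2 recruit Cdc45 and the GINS complex, which turn the helicase on, and polymerases with their clamp, clamp loader and nucleotide supply then copy the strands. Many of these genes are transcribed under E2F factors at the G1/S transition, and their RNA is a common measure of how much of a population is cycling. Adult bulge stem cells divide rarely, whereas cells of the lower outer root sheath and the matrix divide often while hair grows.

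The replication machinery as a whole had lower RNA signals in early bulge cells than in ORS cells, by less than 2-fold for most genes. All 50 members had signals above the floor on both arrays, so none entered through 1 array only. Of the 50, 46 had the lower signal in early bulge cells, where 46.9% of 13285 measured genes did. At least 1.5-fold lower were 30 of the 50, against 12.8% of measured genes, and at least 2-fold lower were 5, against 4.85%. None was 1.5-fold higher in early bulge cells, where 17.2% of measured genes were. The median log2 ratio of the members was -0.68, and that of all measured genes 0.04. In bulk RNA, fewer cells in S phase, less of each RNA per cell and a different mix of cell types cannot be told apart. Most fibroblast markers and all hair matrix markers listed had the higher signal in ORS cells.

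**Figure D1:**
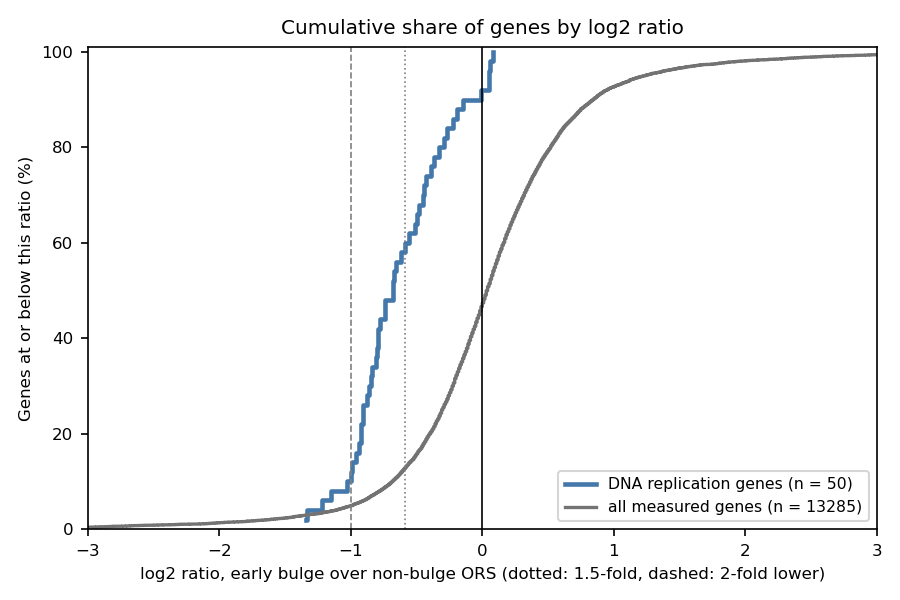
Cumulative share of genes (vertical axis, percent) at or below each log2 ratio of early bulge over non-bulge ORS signal (horizontal axis, shown from -3 to 3), for the 50 DNA replication genes (blue) and all 13285 measured genes (grey). Ratios are rounded to 2 decimals. The blue curve has covered 92.0% of its genes at a ratio of 0, where the grey curve has covered 47.4%, and the highest blue value is 0.08.

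The 5 members at least 2-fold lower in early bulge cells came from 4 steps: Dut (2.53-fold), Cdc6 (2.51-fold), Rfc4 (2.33-fold), Mcm10 (2.21-fold) and Dbf4 (2.04-fold). Just outside that threshold lay Pole (1.999-fold), Ccne2 (1.99-fold) and Orc1 (1.95-fold). The 4 members with a higher signal in early bulge cells were Gins2, Rpa1, Orc5 and Pole2, with log2 ratios of 0.08, 0.06, 0.05 and 0.05, and all 4 turned negative when the arrays were centred on their medians, which lowers the log2 ratio of every gene above the floor by the same amount.

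**Figure D2:**
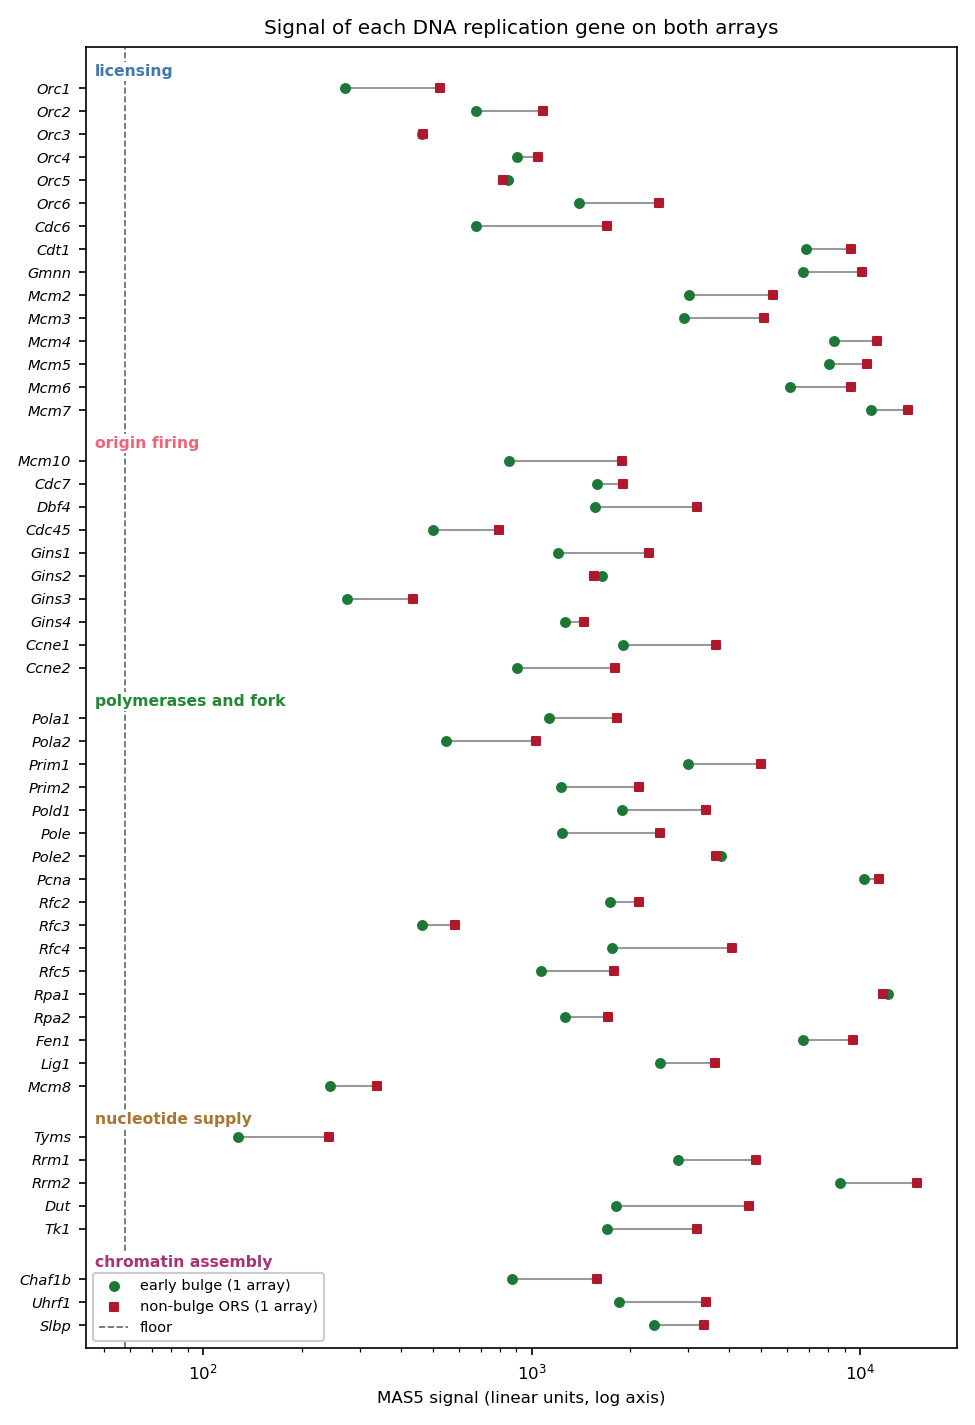
MAS5 signal (horizontal log axis, linear units) of the probe set that stands for each of the 50 members, by step, in early bulge cells (green circles) and non-bulge ORS cells (red squares), 1 array each. The green circle lies left of the red square for 46 members, and all points lie right of the dashed floor at 57.9.

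The promoters of the members were examined for the E2F motif, since E2F factors are the best known regulators of these genes. The 250 bases before the start were read from RefSeq sequences (GRCm38.p6), in which 42 of the 51 members matched by symbol. The E2F motif was searched on both strands as TTTCCCGC, TTTCGCGC, TTTGCCGC or TTTGGCGC, with overlapping matches counted as 1 site. It was present before at least 1 start of 10 of these 42 genes (23.8%), against 407 of 10668 measured genes with a promoter (3.82%) and 583 of all 27025 genes with one (2.16%). The 10 were Cdc6, Gins3, Mcm5, Mcm6, Mcm7, Orc1, Orc3, Pola1, Rfc3 and Uhrf1, of which 6 are among the 13 licensing genes with a promoter. Mcm7 and Uhrf1 held the motif before 1 start and not before another. Of 25 members at least 1.5-fold lower in early bulge cells 6 held the motif (24.0%), and of 16 other analysed members 4 did (25.0%). CCAAT on either strand, the letters of the CCAAT box, was in 24 of the 42 (57.1%), against 40.0% of measured genes, and the mean G and C content was 60.1% for members and 59.7% for measured genes. A match describes these letters and is not a binding site. The promoters of Mcm6, the 1 member with 2 sites, and of the 3 other holders with the largest absolute log2 ratios are shown, read on the strand of the gene, with the E2F motif in capitals.
Mcm6, chr1:128359706-128359955, minus strand: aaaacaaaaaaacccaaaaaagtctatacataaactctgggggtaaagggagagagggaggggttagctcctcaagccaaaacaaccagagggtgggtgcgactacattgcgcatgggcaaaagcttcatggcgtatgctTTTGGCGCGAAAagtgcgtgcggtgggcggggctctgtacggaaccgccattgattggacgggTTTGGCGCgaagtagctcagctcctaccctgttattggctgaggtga
Cdc6, chr11:98907901-98908150, plus strand: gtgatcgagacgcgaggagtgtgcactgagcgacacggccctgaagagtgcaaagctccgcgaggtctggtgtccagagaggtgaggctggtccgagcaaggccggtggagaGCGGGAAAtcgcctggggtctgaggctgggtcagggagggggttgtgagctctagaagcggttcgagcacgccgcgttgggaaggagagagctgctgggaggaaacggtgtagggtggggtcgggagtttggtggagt
Orc1, chr4:108579204-108579453, plus strand: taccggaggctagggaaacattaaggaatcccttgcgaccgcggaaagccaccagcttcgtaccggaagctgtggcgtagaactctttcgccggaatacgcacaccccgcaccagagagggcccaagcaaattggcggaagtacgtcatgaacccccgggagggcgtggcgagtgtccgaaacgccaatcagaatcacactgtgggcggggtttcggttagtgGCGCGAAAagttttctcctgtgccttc
Uhrf1, chr17:56304063-56304312, plus strand: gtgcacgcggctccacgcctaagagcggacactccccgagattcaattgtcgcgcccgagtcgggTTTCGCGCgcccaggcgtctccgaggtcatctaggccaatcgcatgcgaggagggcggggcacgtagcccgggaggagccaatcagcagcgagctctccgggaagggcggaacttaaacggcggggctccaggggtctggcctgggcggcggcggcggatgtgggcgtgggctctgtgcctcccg

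The first site of Mcm6, at 110 bases before the start, joins a match on each strand, and its second lies at 47 bases before the start. The single sites of Cdc6, Orc1 and Uhrf1 begin 138, 27 and 185 bases before the start.

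Licensing genes were lower in early bulge cells in 14 of 15 cases, 8 of them by 1.5-fold or more and 1 by 2-fold or more. The median of their log2 ratios was -0.59. Of all measured genes, 46.9% were lower, 12.8% by 1.5-fold and 4.85% by 2-fold or more. At 2-fold, the licensing share (6.67%) was near the general one. The subunits of ORC, which marks origins, did not share a ratio: 3 were lower and 3 differed little. Orc1, the subunit that comes and goes with the cell cycle in mammals, had a signal of 271 in early bulge cells, against 528 in ORS cells (1.95-fold lower), though a second probe set had a log2 ratio of 0.07. Orc6 had 1392 in early bulge cells, against 2440.2 in ORS cells (1.75-fold lower). Orc2 had 678 in early bulge cells and 1086 in ORS cells, and all 3 of its probe sets were lower in early bulge cells (log2 ratios -0.68 to -0.35). The core subunits Orc3, Orc4 and Orc5 were close to equal on both arrays. Orc3 had 463 in early bulge and 467 in ORS cells, with log2 ratios of -0.15 to 0.22 over 3 probe sets. Orc4 had 902 in early bulge and 1048 in ORS cells, and its 4 probe sets spanned log2 ratios of -1.36 to 0.02, the lowest of them with the early bulge array at the floor. Orc5 had 849 in early bulge cells and 818 in ORS cells.

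The loading factors that act with ORC differed in size. Cdc6, the ATPase that works with ORC and Cdt1 to load the helicase, had 675 in early bulge cells, against 1692 in ORS cells. Cdt1, which brings the helicase to ORC, had 6865 in early bulge cells, against 9396 in ORS cells (1.37-fold lower), with a second measured probe set at a log2 ratio of -0.61. Gmnn, which encodes geminin, the inhibitor of Cdt1 that stops a second round of licensing, had 6729 in early bulge cells, against 10162 in ORS cells (1.51-fold lower). The licensing inhibitor and the factor it inhibits were both lower in early bulge cells.

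All 6 subunits of the Mcm2-7 helicase were lower in early bulge cells, with log2 ratios of -0.84 to -0.37 and none at 2-fold. Mcm2 had 3023 in early bulge cells, against 5426 in ORS cells (1.80-fold lower). Mcm3 had 2919.5 in early bulge cells, against 5094 in ORS cells (1.74-fold lower), and all 5 of its probe sets were lower (log2 ratios -0.92 to -0.22). Mcm6 had 6145 in early bulge cells, against 9420.4 in ORS cells (1.53-fold lower). Its other measured probe set had a log2 ratio of -0.45, 1.37-fold lower. The other 3 subunits were less than 1.5-fold apart on the probe set that stands for them. Mcm4 had 8327 in early bulge and 11271 in ORS cells (1.35-fold lower). Mcm5 had 8041 in early bulge and 10514 in ORS cells (1.31-fold lower). Mcm7 had 10839 in early bulge and 14054 in ORS cells (1.30-fold lower). Other probe sets of Mcm5 and Mcm7 gave stronger ratios: the 3 others of Mcm7 had log2 ratios of -0.82 to -0.77, and 1 of Mcm5 had -0.71, although a dim one of Mcm5, below the floor in ORS cells, had 0.16.

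**Figure D3:**
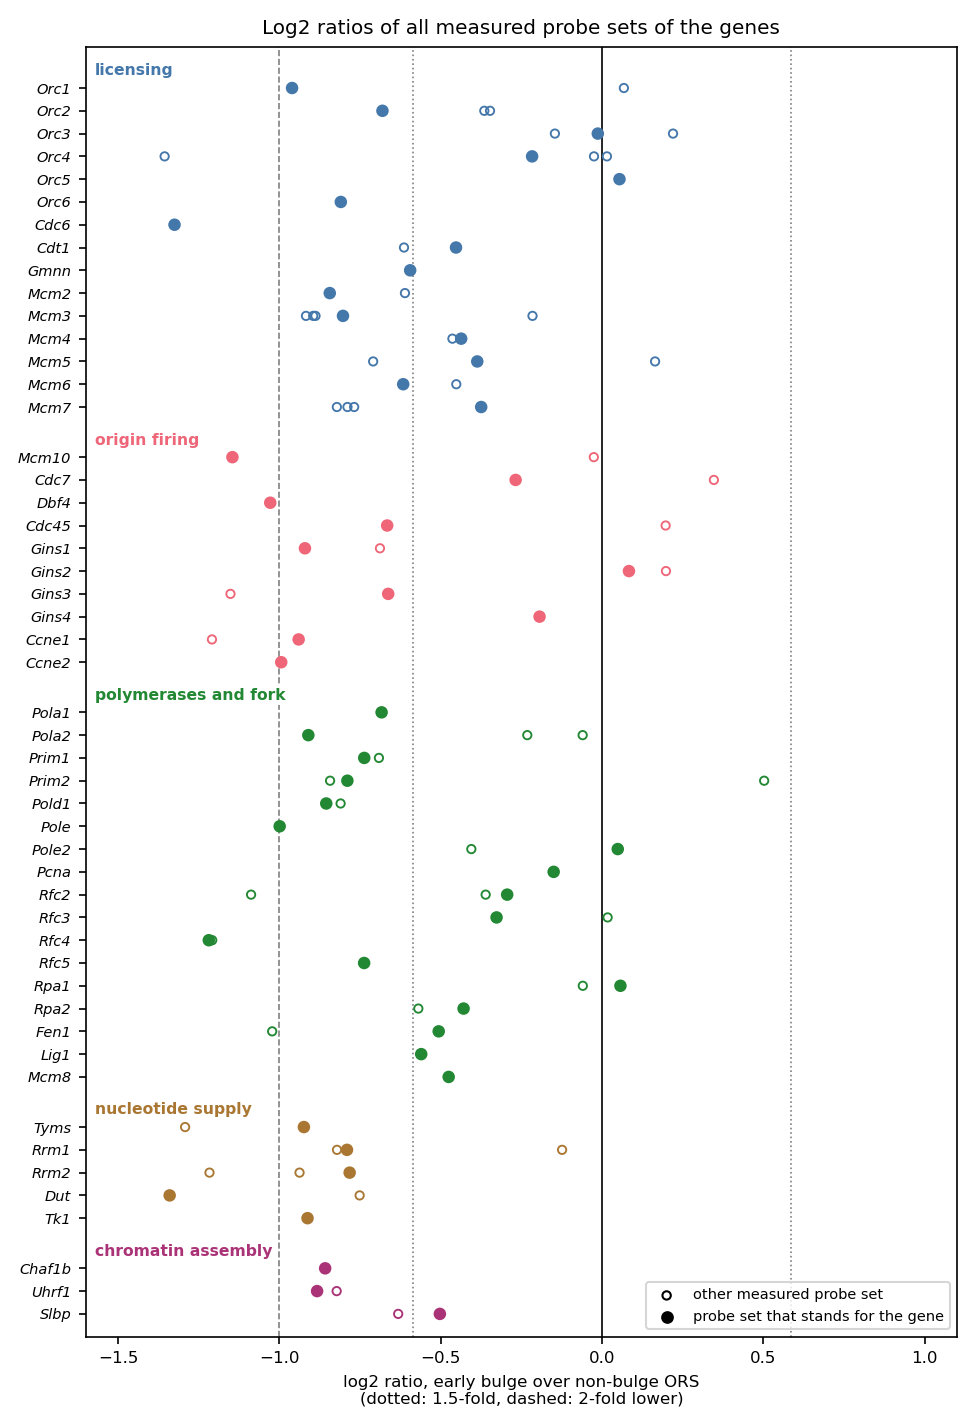
Log2 ratio of early bulge over non-bulge ORS signal (horizontal axis) for the 100 measured probe sets of the 50 members, by step. Filled points are the probe sets that stand for a gene and open points the others: 87 of the 100 lie left of 0, and 10 members have probe sets on both sides of it.

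Origin firing genes were lower in early bulge cells in 9 of 10 cases, 7 by 1.5-fold or more and 2 by 2-fold or more. The median of their log2 ratios was -0.79. The same shares of all measured genes were 46.9%, 12.8% and 4.85%. The kinase that fires origins was lower mainly in its activating subunit. Dbf4, that subunit, had 1563 in early bulge cells, against 3189 in ORS cells, whereas Cdc7, the catalytic subunit, had 1579 in early bulge and 1902 in ORS cells (1.20-fold lower, with a dim second probe set at a log2 ratio of 0.35). Both E cyclins, which activate Cdk2 at the entry into S phase, were close to 2-fold lower. Ccne1 had 1895 in early bulge cells, against 3636 in ORS cells (1.92-fold lower), and a second probe set had a log2 ratio of -1.21. Ccne2 had 900.4 in early bulge cells, against 1794 in ORS cells. Mcm10, which joins the activated helicase, had 851 in early bulge cells, against 1883 in ORS cells, and its other measured probe set, which lay at the floor in early bulge cells and just above it in ORS cells, had a log2 ratio of -0.03.

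Cdc45 and the GINS subunits complete the active helicase. Cdc45 had 502 in early bulge cells, against 796 in ORS cells (1.59-fold lower), with a dim second probe set at a log2 ratio of 0.20. The 4 GINS subunits, which work as 1 complex of equal parts, did not share a ratio. Gins1 had 1206 in early bulge cells, against 2283 in ORS cells (1.89-fold lower), and Gins3 had 275 in early bulge cells, against 435 in ORS cells (1.58-fold lower). Gins4 had 1263 in early bulge and 1444 in ORS cells (1.14-fold lower), and Gins2 had 1641 in early bulge and 1549 in ORS cells. Both probe sets of Gins2 were higher in early bulge cells (log2 ratios 0.08 and 0.20), and both probe sets of Gins1 and of Gins3 were lower (-1.15 to -0.66).

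Polymerases and other fork proteins were lower in early bulge cells in 15 of 17 cases, 8 by 1.5-fold or more and 1 by 2-fold or more. Over this step the median was -0.56 on the log2 scale. The same shares of all measured genes were 46.9%, 12.8% and 4.85%. At 2-fold, the share of this step (5.88%) was near the general one. The 4 subunits of polymerase alpha-primase, which lays the first primers, were alike, with log2 ratios of -0.91 to -0.68. Pola1, the catalytic subunit, had 1131 in early bulge cells, against 1816 in ORS cells (1.61-fold lower). Pola2 had 547 in early bulge cells, against 1029 in ORS cells (1.88-fold lower), although its 2 dim probe sets had log2 ratios of -0.23 and -0.06. The primase subunit Prim1 had 3007 in early bulge cells, against 5011 in ORS cells (1.67-fold lower). The primase subunit Prim2 had 1227 in early bulge cells, against 2121 in ORS cells (1.73-fold lower), with 1 probe set at 0.50, which was below the floor in ORS cells. The catalytic subunits of the main polymerases were also lower. Pold1, of the lagging strand polymerase delta, had 1887 in early bulge cells, against 3412 in ORS cells (1.81-fold lower). Pole, of the leading strand polymerase epsilon, had 1235 in early bulge cells, against 2468 in ORS cells. Its partner subunit Pole2 had 3777 in early bulge and 3652 in ORS cells, with a second, dim probe set at -0.41.

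The sliding clamp and parts of its loader had different ratios. Pcna, the clamp that holds polymerases on DNA, had 10318 in early bulge and 11449 in ORS cells, 1.11-fold lower. Of the small clamp loader subunits, Rfc4 had 1753 in early bulge cells, against 4079.7 in ORS cells, and its second probe set had a log2 ratio of -1.21. Rfc5 had 1071 in early bulge cells, against 1786 in ORS cells (1.67-fold lower). Rfc2 and Rfc3 were less than 1.5-fold apart on the probe sets that stand for them. Rfc2 had 1729.9 in early bulge and 2121 in ORS cells (1.23-fold lower), with another probe set at -1.09, and Rfc3 had 465 in early bulge and 583 in ORS cells (1.25-fold lower), with another at 0.02.

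Proteins that protect, trim and join the new strands were less than 1.5-fold apart on the probe sets that stand for them. Rpa1, the large subunit of the single-strand binding protein, had 12204 in early bulge and 11732.5 in ORS cells, and its second probe set had a log2 ratio of -0.06. Rpa2 had 1267 in early bulge and 1705 in ORS cells (1.35-fold lower). Fen1, the flap nuclease that trims Okazaki fragments, had 6707 in early bulge and 9527 in ORS cells (1.42-fold lower), with a second probe set at -1.02. Lig1, the ligase that joins them, had 2461 in early bulge and 3629.96 in ORS cells (1.47-fold lower). Mcm8, a helicase related to Mcm2-7 that acts in recombination repair, had 243 in early bulge and 337 in ORS cells (1.39-fold lower).

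Nucleotide supply was the step in which all 5 members were at least 1.5-fold lower in early bulge cells (median of the log2 ratios -0.91). Of all measured genes, 12.8% were. Dut, the dUTPase that keeps uracil out of DNA, had 1811 in early bulge cells, against 4586 in ORS cells, and its second probe set had a log2 ratio of -0.75. Tyms, thymidylate synthase, had 127 in early bulge cells, against 241 in ORS cells (1.90-fold lower), and its other measured probe set had -1.29. Tyms was dim, with 2 more probe sets below the floor on both arrays, and a floor at the 60th percentile gave it -0.49. Tk1, the thymidine kinase of S phase, had 1696 in early bulge cells, against 3194 in ORS cells (1.88-fold lower). Both subunits of ribonucleotide reductase, which makes deoxynucleotides, were lower by similar ratios. Rrm1 had 2799 in early bulge cells, against 4842 in ORS cells (1.73-fold lower), with a dim probe set at -0.12. Rrm2, the subunit tied to S phase, had 8713 in early bulge cells, against 14986 in ORS cells (1.72-fold lower), and its 3 probe sets ran from -1.22 to -0.78.

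Of 3 chromatin assembly genes analysed, all 3 were lower in early bulge cells and 2 by 1.5-fold or more (median of the log2 ratios -0.86). Of all measured genes, 46.9% were lower and 12.8% by 1.5-fold or more. Chaf1b, a subunit of the chaperone that places histones behind the fork, had 873 in early bulge cells, against 1582 in ORS cells (1.81-fold lower). Uhrf1, which brings the maintenance DNA methyltransferase to newly copied DNA, had 1847 in early bulge cells, against 3407 in ORS cells (1.84-fold lower), and both of its probe sets had log2 ratios near it (-0.88 and -0.82). Slbp, which binds histone mRNA during S phase, had 2364 in early bulge and 3349.5 in ORS cells (1.42-fold lower).

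Disagreement between probe sets bounded how firmly single genes can be read. Of 35 members with more than 1 measured probe set, 24 were lower on every one and 11 were at least 1.5-fold lower on every one. In 10 members at least 1 probe set had the opposite sign. Orc3, Pole2, Rfc3 and Rpa1 were among these, each with ratios on both sides of 0 and none past 1.5-fold.

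Replication genes outside the members, from a list drawn up with earlier results of these arrays known, were mostly lower in early bulge cells too. Of 35 such factors measured, 34 had the lower signal there, 18 by 1.5-fold or more and 2 by 2-fold or more (median of the log2 ratios -0.60). The same shares of all measured genes were 46.9%, 12.8% and 4.85%. At 2-fold, the share of this list (5.71%) was near the general one. The 4 largest ratios were those of Chtf18, of an alternative clamp loader (120 in early bulge cells, against 310.3 in ORS cells, 2.59-fold lower), the nuclease-helicase Dna2 (888, against 2029.6, 2.29-fold lower), the helicase Recql4 (344, against 681, 1.98-fold lower) and Rrm2b. Rrm2b, the ribonucleotide reductase subunit that p53 induces and that serves cells outside S phase, had 1039 in early bulge cells, against 533 in ORS cells (1.95-fold higher). All 3 of its measured probe sets were higher in early bulge cells (log2 ratios 0.96 to 1.02), opposite to the S phase subunit Rrm2. The 3 measured probe sets of Dna2 had log2 ratios of -1.19 to -0.28, and Chtf18 and Recql4 each rested on 1.

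**Figure D4:**
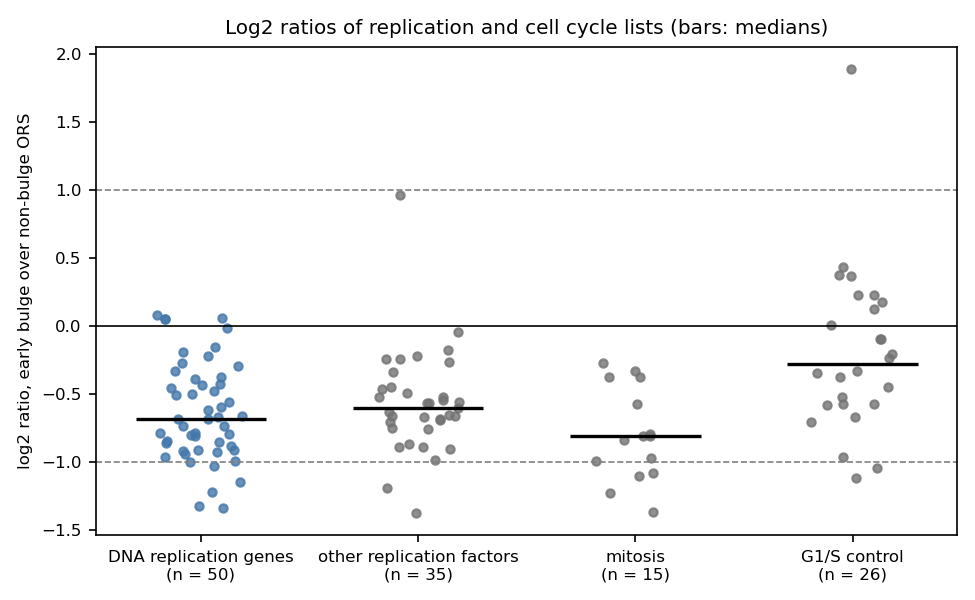
Log2 ratio of early bulge over non-bulge ORS signal (vertical axis) for the 50 DNA replication genes, 35 other replication factors, 15 mitotic genes and 26 genes of G1/S control, 1 point per gene with its position within a column without meaning, and medians as bars. Medians are -0.68, -0.60, -0.81 and -0.28, dashed lines mark 2-fold, and the highest point, in the last column, is Cdkn1a at 1.89.

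Genes of mitosis were lower in early bulge cells, and G1/S control genes lay on both sides of 0. All 15 mitotic genes measured had the lower signal there, 10 by 1.5-fold or more and 4 by 2-fold or more (median of the log2 ratios -0.81). Those 4 were Tpx2, Bub1, Aurkb and Ube2c (2.58-fold to 2.11-fold lower). The 4 measured probe sets of Tpx2 ran from a log2 ratio of -1.37 to 0.27. Both measured probe sets of Bub1 and of Aurkb were lower, and Ube2c rested on 1. Of 26 G1/S control genes, 17 had the lower signal in early bulge cells and 5 of these differed by 1.5-fold or more (median of all 26 log2 ratios -0.28). Of all measured genes, 46.9% were lower, 12.8% by 1.5-fold and 4.85% by 2-fold or more. The G1/S shares (65.4%, 19.2% and 7.69%) were closer to these than the mitotic ones (100%, 66.7% and 26.7%). The largest G1/S ratio was that of Cdkn1a, which encodes the Cdk inhibitor p21 (6214 in early bulge cells, against 1678 in ORS cells, 3.70-fold higher). Dtl, a substrate receptor in the ubiquitin ligase that removes Cdt1 in S phase, had 1615 in early bulge cells, against 3328 in ORS cells (2.06-fold lower), and Skp2, a receptor in a second ligase that acts on Cdt1, had 1488 in early bulge cells, against 2905 in ORS cells (1.95-fold lower). The Cdk inhibitor Cdkn1c had 170.2 in early bulge cells, against 368 in ORS cells (2.16-fold lower), on 1 measured probe set. Dtl had 6 measured probe sets (log2 ratios -1.38 to -0.41), Skp2 5 (-0.97 to -0.05) and Cdkn1a 2 (1.55 to 1.89). Whether the members differ from these lists was not tested.

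The size of the ratios depended on the scaling of the arrays, but the distance between members and other genes varied less. Centring each array on its median moved the median of all measured genes by -0.21 on the log2 scale, to -0.17. With that scaling the members had a median of -0.90, all 50 were lower in early bulge cells, where 62.6% of all genes were, and 21 were at least 2-fold lower, where 7.78% of all genes were. The median of the members minus that of all genes was between -0.76 and -0.64 under the processing reported and 10 alternatives. Median centring shifts members and other genes above the floor alike, so it could hardly change this difference.

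**Figure D5:**
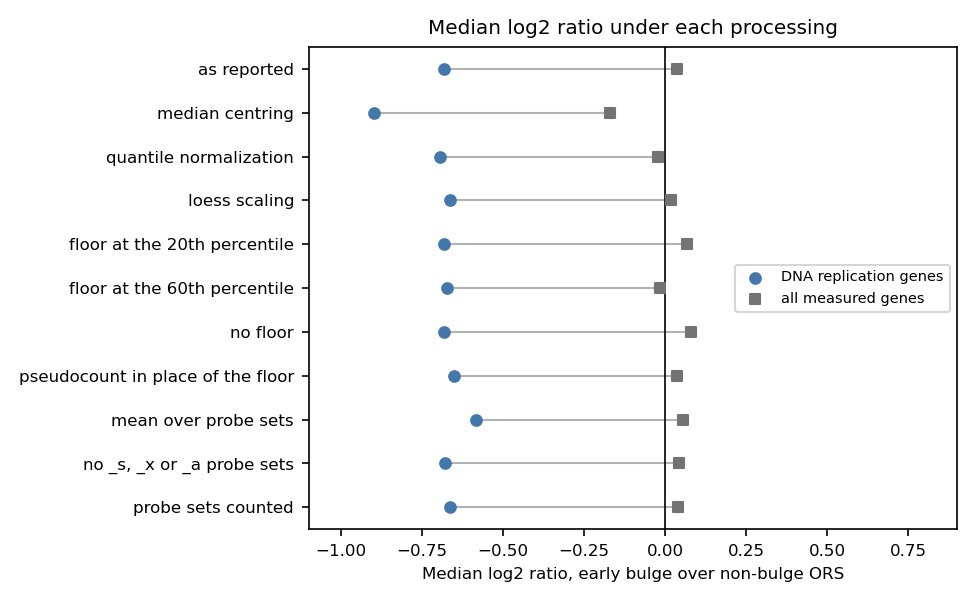
Median log2 ratio of early bulge over non-bulge ORS signal (horizontal axis) for the DNA replication genes (blue circles) and all measured genes (grey squares) under the processing reported and 10 alternatives (rows). The circles lie between -0.90 and -0.58 and the squares between -0.17 and 0.08, so the circle is left of the square in every row.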

How the data were processed

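The authors deposited 1 linear intensity (a signal) for each probe set and array. Per the submitters' processing notes, it was made with MAS5 and Affymetrix Expression Console, whose versions are not stated. No source used here gives the genome build. Probe sets were named from the platform annotation as supplied: 34945 non-control probe sets with 1 symbol were used, and 932 with several and 9160 with none were left out. A gene was measured if a probe set reached the floor on at least 1 array, and its brightest probe set by mean log2 signal stood for it. There were 13285 measured genes, and 1777 had a single array above the floor. Both signals are given for all members, and up to 4 genes of each companion list by absolute log2 ratio. With 1 array per group, genes were counted by size (1.5-fold and 2-fold) and no test was run. The members, lists and rules were chosen with earlier results of these data known. Alternatives were median centring, quantile normalization, loess scaling (span 0.4), a floor at the 20th or the 60th percentile, none, a pseudocount of 50, the mean over probe sets, leaving out those with a suffix (_s, _x, _a), and counting probe sets. The scalings were tested on simulated data. The simulated arrays had no difference in scale, so that test cannot tell which scaling suits the real ones. Python 3.11.15, pandas 2.3.3 and statsmodels 0.14.6 were used.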

Additional observations from a re-analysis of the deposited data

How the results depend on the processing

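The count of members lower in early bulge cells was 46 of 50 and ran from 41 of 45 to 50 of 50 over 9 alternatives that count genes, and was 87 of 100 when probe sets were counted (46.5% of all probe sets). The count at least 1.5-fold lower, 30 of 50, was 39 under median centring (21.2% of all genes), 25 with the mean over probe sets (11.01%) and 56 of 100 probe sets (12.3% of all). The count at least 2-fold lower, 5 of 50, was 21 under median centring (7.78% of all genes), 3 of 45 without _s, _x or _a probe sets (4.88%), and 13 of 100 probe sets (4.44% of all). The sign of the median of all members and of each step was negative under all 10 alternatives. Of 445 values of single members under alternatives, 437 moved by less than 0.33 on the log2 scale, the spread of 1 probe set, and 8 in 7 members moved by more. These were Mcm10 (-0.59 with the mean over probe sets, -0.03 without suffixed ones), Orc1 (-0.45), Cdc45 (-0.23), Pola2 (-0.40) and Prim2 (-0.38) with the mean over probe sets, Tyms (-0.49) under the 60th percentile floor, and Dut (-0.75) without suffixed probe sets. The count of 437 is no measure of stability, because many of these values could not move by 0.33. Median centring shifted every member by the same amount, which was smaller than that. A lower floor or no floor left every member unchanged, since all lay above the floor. The mean over probe sets could not change a member with 1 measured probe set. The mean over probe sets takes in dim probe sets, and 21 of 50 representatives have a suffix, which marks probes that can match several transcripts. Of the 50 members, 43 were negative under every alternative run for them, which leaves out the count of probe sets for single members and, for Cdc6, Cdc7, Fen1, Mcm7 and Pole, the one without suffixed probe sets. The others, Orc3, Orc4, Orc5, Cdc7, Gins2, Pole2 and Rpa1, changed sign under at least 1. No paired analysis was possible because each population has 1 array.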

Other observations

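The E2F factors, which act on many replication promoters, had ratios on both sides of 0. They are named here after their values were seen. E2f2, E2f7 and E2f8 had log2 ratios of -0.45, -0.57 and -0.52, lower in early bulge cells. E2f3 had -0.57, with a second probe set at 0.25, E2f6 had -0.20, with a second at 0.59, and E2f5 had -0.10, with its 3 probe sets running down to -0.64. E2f1 had a signal of 401 in early bulge cells, against 297 in ORS cells (log2 ratio 0.43), but a second probe set gave -0.37. E2f4, a repressor in resting cells, had 156 in early bulge cells, against 121 in ORS cells. The repressors E2f7 and E2f8 each rested on 1 probe set. Of the pocket proteins that hold E2F factors back, Rb1 had a log2 ratio of 0.23 and Rbl2 of 0.17, with a second probe set of Rbl2 at -0.17, both within the spread of 1 probe set (0.33). Rbl1 had -0.35.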
